A study of Arabidopsis thaliana with 4 samples.

Results

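Nuclear genes for light harvesting, the photosystems, Rubisco activation and chlorophyll synthesis were described in dark-grown Arabidopsis thaliana seedlings without phytochromes A and B and in wild-type seedlings. The genes were chosen by a rule on symbols that takes no measured values, though earlier results of these data were known at the time. A probe set had to be annotated to 1 nuclear gene whose symbol belongs to the families LHCA, LHCB, PSA, PSB, PET, RBCS, RCA, PPL, PQL, NDF, PNS, HEM, CHL, POR, GUN, PTAC, SIG, CRD, CAO or FD. This gave 16 genes of the 13350 genes with such a probe set, and each of the 16 had 1 probe set. The gene table of RefSeq holds 88 nuclear symbols of these families. Of them, 3 of 13 light-harvesting symbols, 2 of 12 for photosystem I, 2 of 12 for photosystem II, 1 of 5 for carbon fixation and 8 of 18 for tetrapyrrole synthesis were measured here. The 21 symbols for plastid transcription and signalling, 5 for electron carriers and 2 for the NDH complex were not analysed here, so the values describe photosynthesis and chlorophyll genes and nothing of plastid transcription.

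Seedlings carrying both phyA-211 and phyB-9 (phyA phyB, in Columbia) had 2 Affymetrix ATH1 arrays, and the Columbia wild type had 2. Seeds of both genotypes were sown on 0.8% agar, chilled for 5 days at 6 °C, and given 1 h of white light at 22 °C so that they germinated together. Seedlings of both genotypes then spent 3 days in darkness at 22 °C, so that hour was the only light the labels give. The design asks how the loss of both receptors alters transcript levels in such seedlings. The labels do not say whether the 2 arrays of a genotype came from separate cultures, so p-values reflect no more than the spread among these samples, and that spread may be technical.

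Phytochromes are red and far-red light receptors that, once activated by light, enter the nucleus and remove repressors of light-regulated genes, among them genes of the photosynthetic apparatus. Seedlings in darkness make etioplasts, plastids without a working photosynthetic membrane, and hold chlorophyll synthesis at protochlorophyllide, because the next enzyme needs light. Most proteins of the apparatus and all enzymes of chlorophyll synthesis are encoded in the nucleus and imported into the plastid.

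The arrays did not pair up cleanly by genotype. The correlation of log2 values over the tested probe sets was 0.917 for the mutant arrays and 0.95 for the wild-type arrays. Mutant array 1 correlated at 0.9 and 0.886 with the wild-type arrays, and mutant array 2 at 0.947 and 0.936. Probe sets are not replicates, and these values are a description. Summed intensity per array lay between 76027250 and 77974921. Neither mutated gene had a named probe set here, so the genotype labels were not checked. Of the markers of dark-grown seedlings, 1 of 7 was named, the isocitrate lyase gene ICL of fat mobilisation, with intensities of 132927 and 139802 in mutant seedlings and 142038 and 138139 in wild-type seedlings. Of 29 seed markers, 8 were named and tested. They summed to intensities of 359061 and 126671 on mutant arrays 1 and 2, against 33174 and 32630 in wild-type seedlings, and no seed marker was at 0.

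None of the photosynthesis and chlorophyll genes passed the test between genotypes. Of the 16 genes, 15 were bright enough to be tested, and 0 of the 15 had an adjusted p under 0.05 in limma, against 0.0953% of all 13648 tested probe sets (0.0879% higher and 0.00733% lower in mutant seedlings). At an unadjusted p under 0.05, 1 of 15 was higher in mutant seedlings and 0 were lower, against 4.02% and 3.22% of all tested probe sets, or 7.24% in all. The median log2 difference, mutant minus wild type, was 0.26, against 0.00 over all tested probe sets, and single genes ran from -0.27 to 0.63. Standard errors ran from 0.21 to 0.38. The 95% intervals lay within -0.89 and 1.23, and 14 of 15 held 0. Of the 15 genes, 13 had a higher mean in mutant seedlings, against 50.4% of all tested probe sets.

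The 2 mutant arrays gave different pictures. On mutant array 1 the median of the 15 genes was 0.55 above the wild-type mean on the log2 scale, and on mutant array 2 it was -0.02. Over all tested probe sets these medians were 0.00 and 0.03. On mutant array 1, 13 of 15 genes lay above both wild-type arrays, against 37.4% of all tested probe sets, and 1 of 15 lay below both, against 38.8%. On mutant array 2, 3 of 15 lay above both wild-type arrays, against 36.4% of all tested probe sets, and 6 of 15 lay below both, against 31.4%. All 15 tested genes were higher on mutant array 1 than on mutant array 2, where the share of all tested probe sets was 47.3%. Under quantile normalization this count was 14, because CHLM then had nearly equal values of -0.17 on both mutant arrays. These are values of single arrays, which have no replicate error of their own. Of the 15 genes, 10 were among the brightest 10% of probe sets. Of all probe sets that bright, 45.0% were higher on mutant array 1 than on mutant array 2, and 33.1% lay above both wild-type arrays on mutant array 1. On mutant array 2, 26.5% of them lay above both wild-type arrays and 41.0% below both. The counts of 3 and 6 of 15 genes on mutant array 2 were near these shares and are not a result about these genes.

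**Figure D1:**
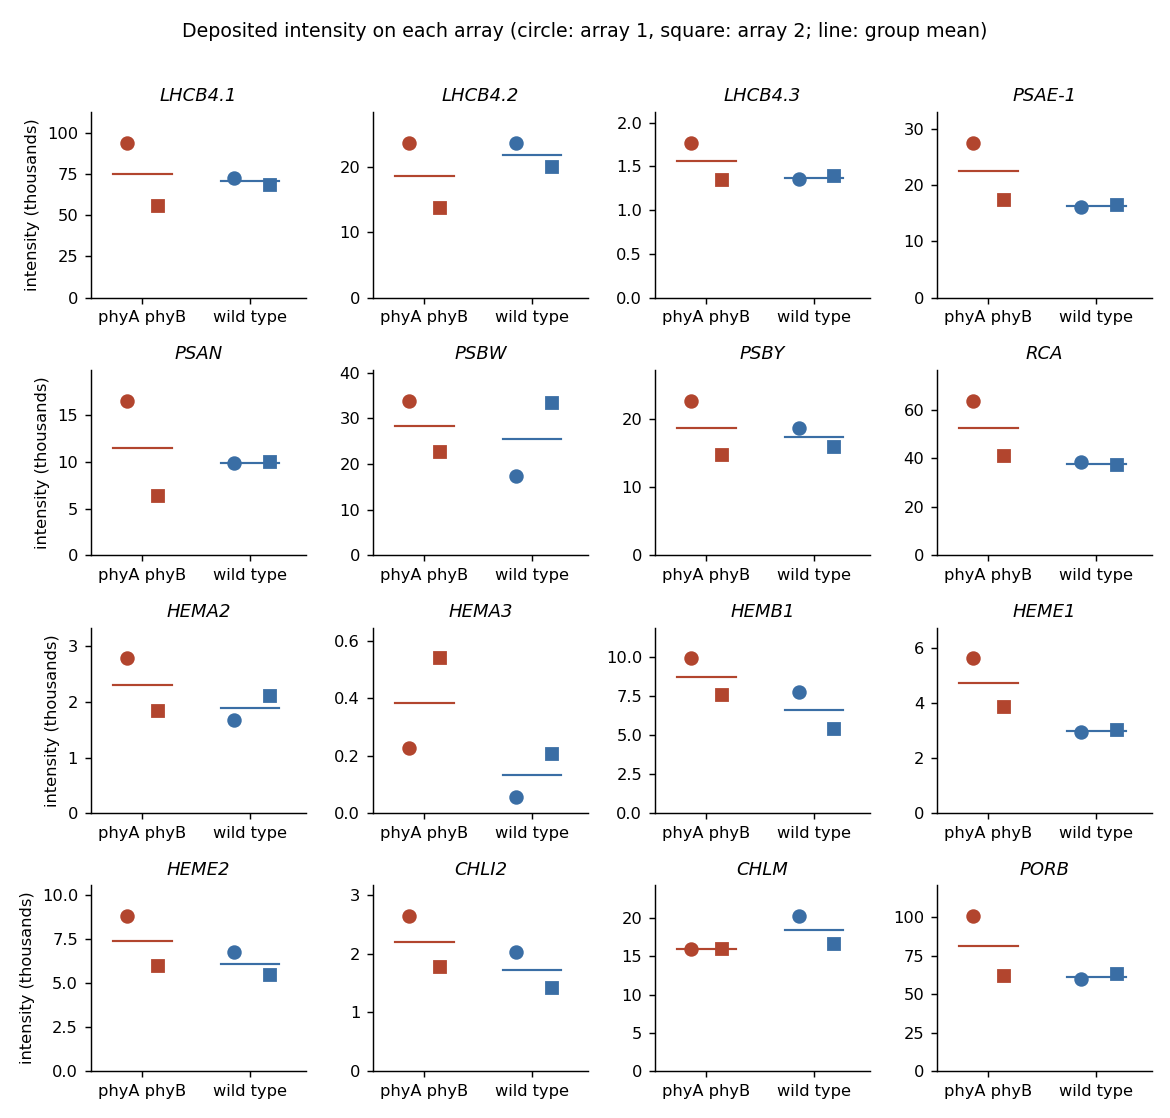
Deposited intensity divided by 1000 for each of the 16 genes, each panel with its own axis from 0, with the phyA phyB arrays left and the wild-type arrays right (circle, array 1; square, array 2; line, group mean). Mutant array 1 is the highest of the 4 points in 13 of the 15 tested genes, with CHLM and LHCB4.2 as the exceptions.

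The plot of intensities by array sets these genes out one by one. Read across its panels, the line for the mutant mean sits above the wild-type line in all genes but LHCB4.2 and CHLM.

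Light-harvesting genes came first. The LHCB4 family encodes CP29, a minor antenna protein that binds chlorophyll and passes energy to the photosystem II core. LHCB4.1 (AT5G01530) had intensities of 93883 and 55806 in mutant seedlings, against 72439 and 68500 in wild-type seedlings. The mutant arrays thus lay on opposite sides of the wild type, and their mean differed from it by 0.04 (SE 0.26, 95% interval -0.54 to 0.62, adjusted p = 0.982 in limma). LHCB4.2 (AT3G08940), its close relative, had 23637 and 13768 in mutant seedlings, against 23717 and 20029 in wild-type seedlings. Mutant array 1 lay just under the higher wild-type array, whereas mutant array 2 lay below both. The difference of LHCB4.2 was -0.27 (SE 0.28, 95% interval -0.89 to 0.35, adjusted p = 0.839), the lowest of the 15 genes. LHCB4.3 (AT2G40100) had 1768 and 1349 in mutant seedlings and 1352 and 1390 in wild-type seedlings, a difference of 0.16 (SE 0.30, adjusted p = 0.921). Only its array 1 value left the wild-type range by more than a few units. All 3 antenna genes lay below both wild-type arrays on mutant array 2, LHCB4.3 only by a few units, against 31.4% of all tested probe sets. Mutant array 1 gave them a median of 0.35 and mutant array 2 one of -0.34. LHCB4.1 and LHCB4.2 are close copies, and signal shared between their probe sets was not tested.

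Photosystem I, which reduces ferredoxin, was represented by 2 genes. PSAE-1 (AT4G28750), for a subunit at the ferredoxin docking side, had 27497 and 17401 in mutant seedlings, against 16077 and 16415 in wild-type seedlings. Both mutant arrays were above both wild-type arrays, array 1 by far the more. Its difference was 0.43 (SE 0.25, 95% interval -0.14 to 1.00, adjusted p = 0.723 in limma). PSAN (AT5G64040), for a lumenal subunit that takes part in docking plastocyanin, had 16586 and 6401 in mutant seedlings, against 9856 and 10003 in wild-type seedlings. Its wild-type arrays nearly coincided, and the mutant arrays stood far from them on either side. PSAN was 1.67-fold the wild-type mean on mutant array 1 and 0.65-fold on mutant array 2, so the mean difference of 0.05 (SE 0.38, 95% interval -0.80 to 0.91, adjusted p = 0.984) describes neither array. The mutant arrays differed by 1.36 on the log2 scale, the widest gap among the 15 tested genes.

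Photosystem II, which splits water, was also represented by 2 genes for small subunits of its core complex. PSBW (AT2G30570) had 33858 and 22699 in mutant seedlings and 17398 and 33460 in wild-type seedlings. Here the wild-type arrays themselves were 0.94 apart on the log2 scale, and the mutant values fell almost wholly within that span. The difference of PSBW was 0.20 (SE 0.32, adjusted p = 0.906), and it was -0.27 when wild-type array 1 was left out. PSBY (AT1G67740) had 22746 and 14761 in mutant seedlings and 18744 and 15942 in wild-type seedlings, a difference of 0.08 (SE 0.25, adjusted p = 0.955). As with the antenna gene LHCB4.1, array 1 was above and array 2 below both wild-type arrays.

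Carbon fixation was represented by RCA (AT2G39730), for Rubisco activase, the chaperone that clears inhibitory sugars from Rubisco. RCA had 63829 and 40909 in mutant seedlings, against 38462 and 37256 in wild-type seedlings. Both mutant arrays were above both wild-type arrays, array 1 by 1.68-fold of the mean and array 2 by 1.08-fold. The difference was 0.43 (SE 0.24, 95% interval -0.12 to 0.98, adjusted p = 0.719 in limma).

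**Figure D2:**
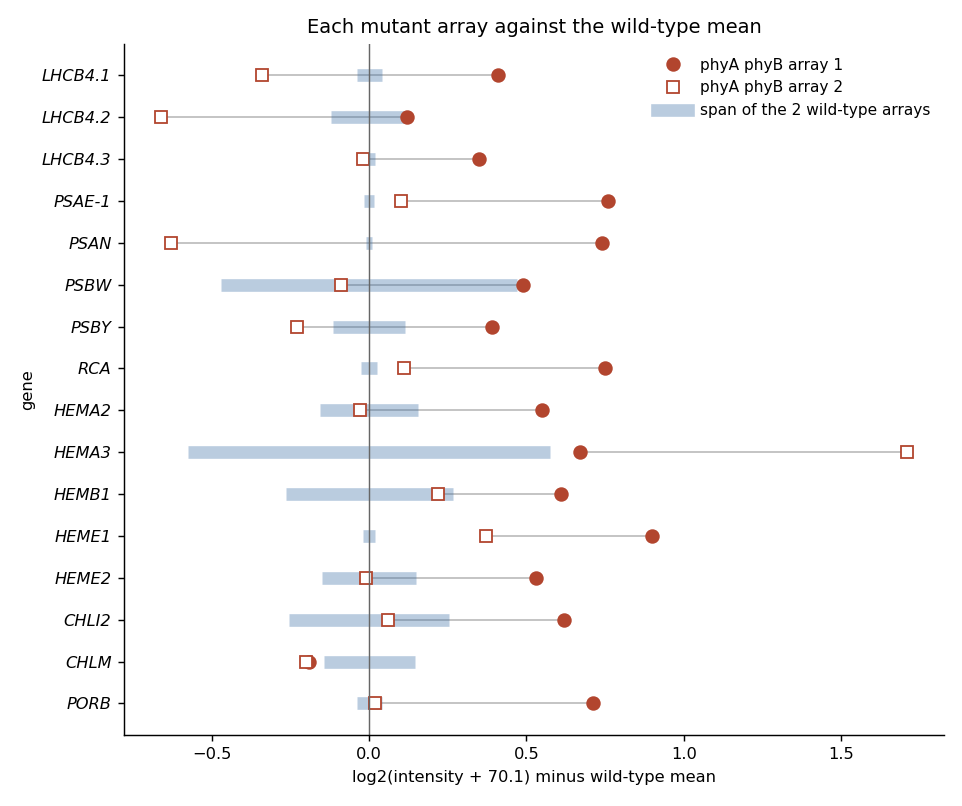
Log2(intensity + 70.1) of each phyA phyB array minus the wild-type mean (filled circle, array 1; open square, array 2) for the 16 genes, with a blue bar for the span of the 2 wild-type arrays. The circles of 13 tested genes lie right of the blue bar, whereas the squares lie on either side of 0; HEMA3, which was too dim to be tested, has the opposite order.

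Tetrapyrrole synthesis, which leads to both haem and chlorophyll, held 8 genes. The pathway starts with glutamyl-tRNA reductase, encoded by the HEMA genes. HEMA2 (AT1G09940) had 2783 and 1841 in mutant seedlings and 1684 and 2105 in wild-type seedlings, a difference of 0.26 (SE 0.30, adjusted p = 0.857). Array 1 was above both wild-type arrays and array 2 lay between them. HEMA3 (AT2G31250) had 226 and 539 in mutant seedlings and 54.8 and 208 in wild-type seedlings. It was too dim for the filter and was not among the 15 tested genes. It was also the 1 member of the 16 that was higher on mutant array 2 than on mutant array 1, and its 2 wild-type arrays differed by 1.15 on the log2 scale. Fitted with no filter on dim probe sets, its difference was 1.19 (SE 0.79, 95% interval -0.61 to 2.99, adjusted p = 0.85).

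Further along the shared part of the pathway, HEMB1 (AT1G69740) encodes aminolevulinate dehydratase, which forms porphobilinogen. HEMB1 had 9898 and 7538 in mutant seedlings and 7781 and 5375 in wild-type seedlings, a difference of 0.41 (SE 0.26, adjusted p = 0.743). Array 2 stayed within the wild-type span. HEME1 and HEME2 encode uroporphyrinogen decarboxylase, the step that commits the ring towards haem and chlorophyll rather than sirohaem. HEME1 (AT3G14930) had 5618 and 3849 in mutant seedlings, against 2931 and 3016 in wild-type seedlings. Both mutant arrays stood clear of a narrow wild-type span. Its difference of 0.63 was the highest of the 15 genes, equal to 1.55-fold (SE 0.26 on the log2 scale, 95% interval 0.04 to 1.23). HEME1 had an unadjusted p of 0.0393, the only one under 0.05 among the 15 in limma, and an adjusted p of 0.672. HEME2 (AT2G40490) had 8793 and 5991 in mutant seedlings and 6737 and 5440 in wild-type seedlings, a difference of 0.26 (SE 0.26, adjusted p = 0.838). Unlike HEME1, its array 2 value lay between the wild-type arrays. The difference between the HEME genes was not tested.

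The branch to chlorophyll begins where magnesium is inserted into protoporphyrin. CHLI2 (AT5G45930), for an ATPase subunit of magnesium chelatase, had 2643 and 1774 in mutant seedlings and 2041 and 1413 in wild-type seedlings. The difference was 0.34 (SE 0.32, adjusted p = 0.823), and array 2 lay between the wild-type arrays. CHLM (AT4G25080), for the methyltransferase that acts next, had 16022 and 15926 in mutant seedlings, against 20258 and 16613 in wild-type seedlings. It was the only tested gene of the 15 with nearly equal mutant arrays, and both lay below both wild-type arrays. The difference of CHLM was -0.20 (SE 0.21, 95% interval -0.68 to 0.28, adjusted p = 0.846). Under cyclic loess its array 1 value lay between the wild-type arrays. PORB (AT4G27440), for a protochlorophyllide oxidoreductase that performs the light-requiring step, had 100743 and 62062 in mutant seedlings and 59615 and 63173 in wild-type seedlings. Array 1 was 1.64-fold the wild-type mean and array 2 was 1.01-fold. The difference of PORB was 0.37 (SE 0.25, 95% interval -0.20 to 0.93, adjusted p = 0.764).

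**Figure D3:**
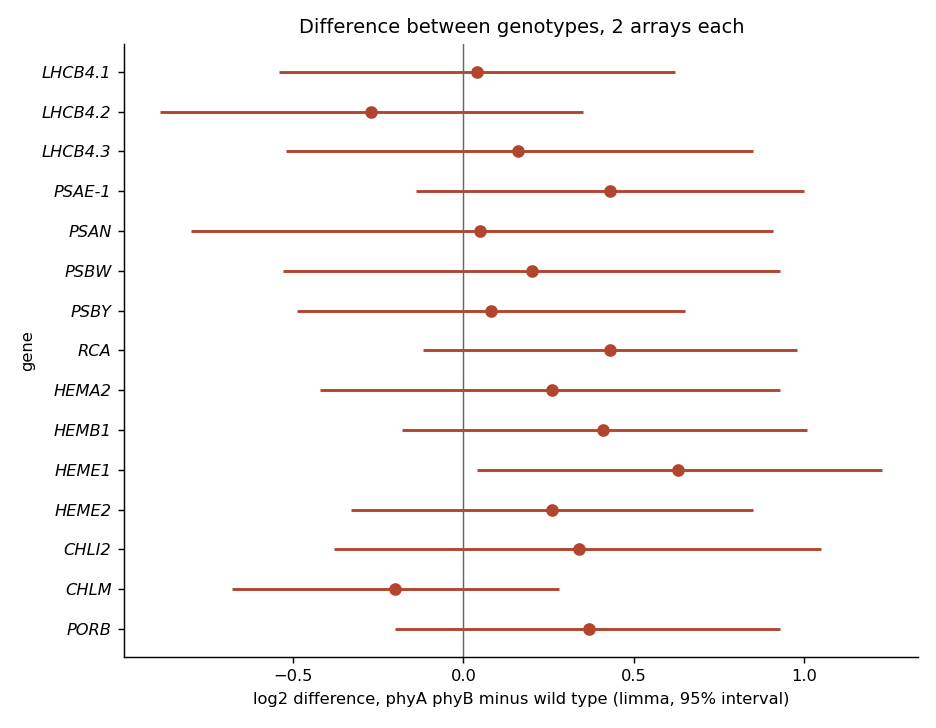
Log2 difference between phyA phyB and wild-type seedlings for the 15 tested genes, from the limma fit with 2 arrays per genotype (point, difference; line, 95% interval). The interval of HEME1, 0.04 to 1.23, is the one that does not hold 0, and its adjusted p was 0.672.

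The plot of genotype differences shows how wide the intervals are. At 2 arrays per genotype, a 1.5-fold higher level in mutant seedlings (0.585 on the log2 scale) lay inside the interval of all genes but LHCB4.2 and CHLM, and these data do not show that levels were alike. Fewer cells of a type and less RNA per cell cannot be told apart in RNA from seedlings.

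Both mutant arrays lay above both wild-type arrays for 3 of the 15 genes, HEME1, RCA and PSAE-1, which is 20% of them against 20.0% of all tested probe sets. Both lay below for CHLM alone, 1 of 15 against 18.3%. Neither share is a result about these genes. Under median scaling, HEME1 was the only gene of the 3 with mutant array 2 still above both wild-type arrays. Under quantile normalization and cyclic loess, PORB was also above both wild-type arrays on mutant array 2.

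By size, 7 of the 15 genes were at least 1.5-fold above the wild-type mean on mutant array 1, against 13.2% of all tested probe sets. These were HEME1, PSAE-1, RCA, PSAN, PORB, CHLI2 and HEMB1, from 1.87-fold for HEME1 to 1.52-fold for HEMB1. On mutant array 2 no gene was 1.5-fold above the wild-type mean, against 8.59% of all tested probe sets. LHCB4.2 and PSAN were at least 1.5-fold below it there, 2 of 15 against 5.94%. Such differences were rarer among the brightest 10% of probe sets. There 7.03% were 1.5-fold above on mutant array 1, and 1.98% above and 2.59% below on mutant array 2. The absence of genes 1.5-fold above on mutant array 2 is thus not a result about these genes. LHCB4.1, LHCB4.3, PSAN and PSBY were above both wild-type arrays on mutant array 1 and below both on mutant array 2, 4 of 15 genes against 7.88% of all tested probe sets. The reverse held for 0 of 15, against 9.87%. These 4 are all genes of the antenna or the photosystems. Of the 7 tested tetrapyrrole genes, 0 had opposite positions on the mutant arrays. That is near the low shares of 7.88% and 9.87% among all tested probe sets. The difference between tetrapyrrole genes and the antenna and photosystem genes was not tested.

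**Figure D4:**
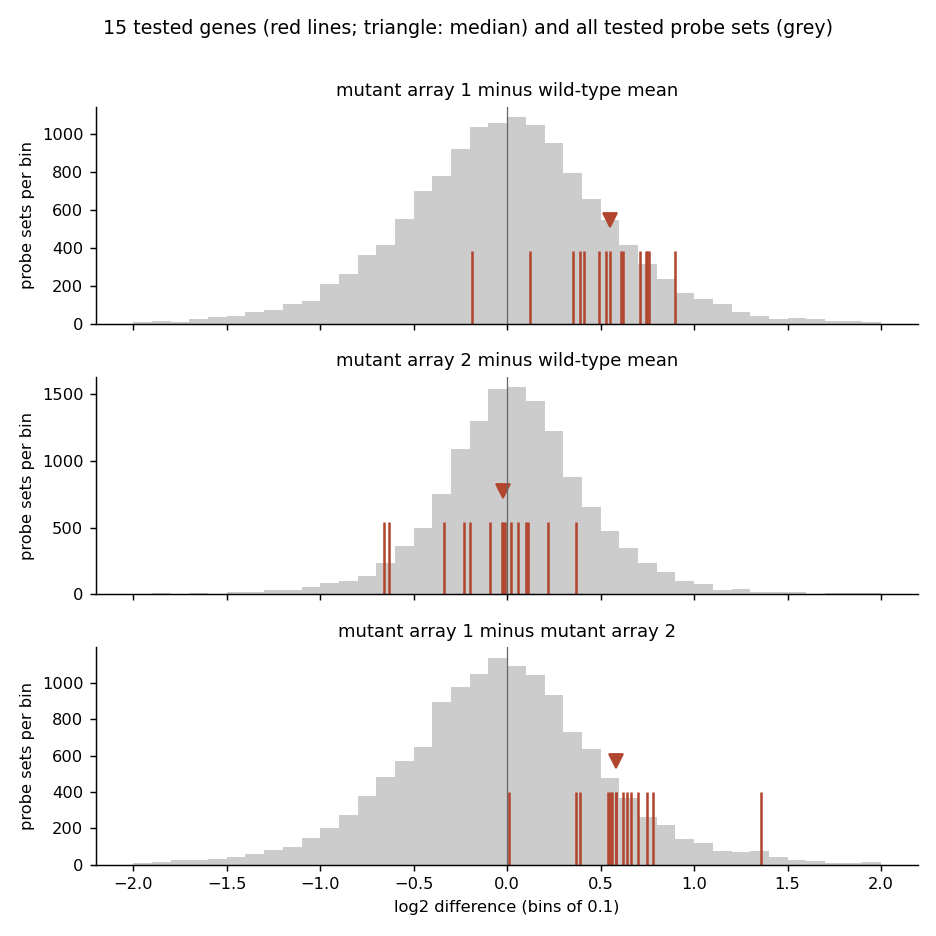
Number of tested probe sets per bin of 0.1 in log2 difference (grey) for mutant array 1 and mutant array 2, each minus the wild-type mean, and for mutant array 1 minus mutant array 2, with the 15 tested genes as red lines and their median as a triangle. The triangles stand at 0.55, -0.02 and 0.58, while the medians of all probe sets are 0.00, 0.03 and -0.03.

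The spread within genotypes differed as well. The mutant arrays were further apart than the wild-type arrays for 12 of the 15 genes, against 56.7% of all tested probe sets. The median gap between arrays of a genotype was 0.58 on the log2 scale for mutant seedlings and 0.23 for wild-type seedlings, where all tested probe sets had 0.33 and 0.26. The exceptions were PSBW, HEMB1 and CHLM. Wild-type array 2 was above wild-type array 1 for 7 of the 15, against 49.9% of all tested probe sets. Leaving out mutant array 2 took the median of the 15 genes to 0.55, and leaving out mutant array 1 took it to -0.02. With mutant array 2 left out, 0 of the 15 genes passed an adjusted p of 0.05 in limma, with a lowest adjusted p of 0.076, where 3.09% of all tested probe sets passed. In that fit 6 of the 15 were higher at an unadjusted p under 0.05, against 7.91% of all tested probe sets. With mutant array 1 left out, 0 of the 15 passed, against 0.278% of all tested probe sets. At an unadjusted p under 0.05, 2 of the 15 were then lower, against 2.98%.

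The seed markers were also higher on mutant array 1 than on mutant array 2, but most of them were above the wild type on both. Set against the wild-type mean, mutant array 1 had a median log2 difference of 3.80 for them and mutant array 2 had 2.09. All 8 were higher on array 1 than on array 2, against 47.3% of all tested probe sets. Both mutant arrays lay above both wild-type arrays for 7 of the 8, against 20.0%. The exception, OLEO3, had 0.55 and -0.10, and on mutant array 2 it lay between the wild-type arrays. Over both arrays 3 of the 8 rose at an adjusted p under 0.05 in limma, against 0.0879% of all tested probe sets. These markers were chosen with earlier results of these data known. Their part in the higher values of the photosynthesis and chlorophyll genes on mutant array 1 was not tested. ICL, by contrast, had -0.08 and 0.00 on mutant arrays 1 and 2. It had the highest intensities of the genes named here, and saturation of its signal was not tested. Of the root markers, 1 of 7 was tested, the beta-glucosidase gene PYK10, with -0.03 and -0.14. EXPA7, a root hair expansin gene too dim to be tested, had intensities of 93 and 927 in mutant seedlings and 984 and 796 in wild-type seedlings.

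**Figure D5:**
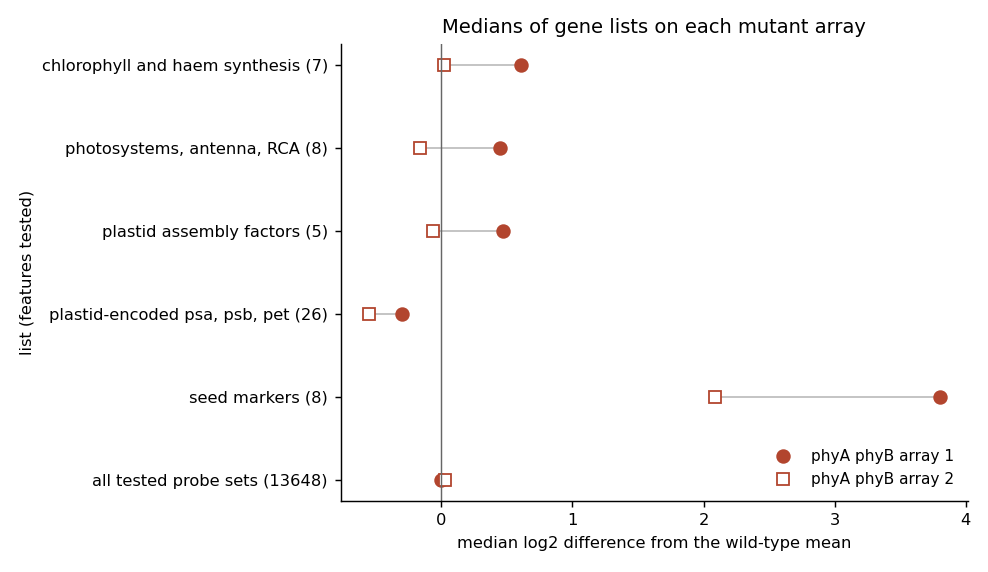
Median log2 difference from the wild-type mean on phyA phyB array 1 (filled circle) and phyA phyB array 2 (open square) for gene lists, with the number of features tested in brackets. Tetrapyrrole genes stand at 0.61 and 0.02, the photosystem, antenna and RCA genes at 0.45 and -0.16, plastid-encoded genes at -0.30 and -0.55, and seed markers at 3.80 and 2.09.

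The plot of list medians sets the genes beside related lists. Of 33 symbols for plastid development and assembly factors, 5 were named and tested, and 0 of the 5 passed. All 5 lay above both wild-type arrays on mutant array 1, against 37.4% of all tested probe sets, with a median of 0.47. On mutant array 2, 2 lay above both and 3 below both, against 36.4% and 31.4%, with a median of -0.06. HCF101, for a protein that delivers iron-sulphur clusters to photosystem I, had 7530 and 3953 in mutant seedlings, against 4146 and 4158 in wild-type seedlings. It differed from the wild-type mean by 0.85 on array 1, and by -0.07 on array 2, where it lay slightly below both wild-type arrays. LPA2, for a photosystem II assembly factor, differed by 0.52 and 0.21, with both mutant arrays above both wild-type arrays. LIL3:1, for a light-harvesting-like protein that acts in chlorophyll synthesis, differed by 0.47 and -0.06. LPA1, also for a photosystem II assembly factor, had 0.25 and -0.33, and its mean difference of -0.04 was the lowest of the list. PAM68 had 0.16 and 0.09.

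Of 19 Calvin cycle symbols, 2 were tested and 0 passed. PRK, for phosphoribulokinase, had 0.13 and -0.28 on mutant arrays 1 and 2. SBPASE, for sedoheptulose bisphosphatase, had 0.39 and 0.19, but its wild-type arrays alone were 0.83 apart. Of 23 carotenoid symbols, 2 were tested and 0 passed, and both had a lower mean in mutant seedlings. LYC, for lycopene cyclase, had 3787 and 3872 in mutant seedlings, against 5029 and 4670 in wild-type seedlings. Z-ISO, for a carotene isomerase, had 1790 and 2489 in mutant seedlings, against 3373 and 2495 in wild-type seedlings. For both genes each mutant array was below both wild-type arrays, against 18.3% of all tested probe sets, Z-ISO on array 2 only by a few units. The adjusted p in limma was 0.764 for LYC and 0.749 for Z-ISO. Symbols for plastid import (15) and for FtsH and Deg proteases (16) were not analysed here.

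Light signalling genes were represented by FHL and HYH of 30 symbols. FHL, whose protein helps phytochrome A enter the nucleus, had 3288 and 3060 in mutant seedlings, against 1586 and 2002 in wild-type seedlings. Its difference did not split the mutant arrays, at 0.86 and 0.76, and its adjusted p was 0.563 in limma. HYH, a bZIP factor that activates light-regulated genes, was too dim to be tested, with 566 and 75.4 in mutant seedlings and 74.6 and 30.9 in wild-type seedlings. Mutant array 1 was high, and mutant array 2 equalled the higher wild-type array to within a unit.

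A further 9 nuclear genes of photosynthesis or tetrapyrrole synthesis have symbols that the rule does not take, and 6 of them were tested, with 0 passing. On mutant array 1, 4 of the 6 were above both wild-type arrays, against 37.4% of all tested probe sets, and 4 were higher on array 1 than on array 2, against 47.3%. NdhS and hemf2 were higher on array 2. PSB27, for a photosystem II assembly protein of the lumen, had 0.26 on array 1 and -0.34 on array 2. CRR28, for a pentatricopeptide repeat protein that edits transcripts of the chloroplast NDH complex, had 0.51 and -0.12. NdhS, a subunit of that complex, had the opposite order, -0.64 and -0.03. CRR42 had 2011 and 1496 in mutant seedlings, against 1213 and 660 in wild-type seedlings. Its unadjusted p was 0.0412 and its adjusted p 0.675 in limma. It was the 1 gene of the 6 with an unadjusted p under 0.05, against 7.24% of all tested probe sets.

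Plastid-encoded partners of these proteins are the psa, psb and pet genes, of which 26 were tested. Mutant array 1 gave them a median of -0.30 and mutant array 2 one of -0.55, against 0.45 and -0.16 for the 8 nuclear genes of photosystems, antenna and RCA. On mutant array 1, 2 of the 26 were above both wild-type arrays and 11 were below both, against 37.4% and 38.8% of all tested probe sets. On mutant array 2, 2 were above both and 14 were below both, against 36.4% and 31.4%. Both mutant arrays were below both wild-type arrays for 8 of the 26, against 18.3%. Most of the 26 were bright. Among the brightest 10% of probe sets, 27.2% were below on both mutant arrays, so the 8 of 26 was near that share. There 33.1% were above and 48.8% below both wild-type arrays on mutant array 1. On mutant array 2 these shares were 26.5% and 41.0%. Of the 26, 1 passed in limma, psbA, for the D1 protein of the photosystem II reaction centre, against 0.0953% of all tested probe sets. It had 7604 and 5856 in mutant seedlings, against 25363 and 45420 in wild-type seedlings, with both mutant arrays far below both wild-type arrays. The log2 difference of psbA was -2.33 (SE 0.29, adjusted p = 0.0277). Its adjusted p was 0.0528 with no filter, 0.382 by eBayes without trend and 0.21 without wild-type array 2. The plastid-encoded values rest on wild-type arrays that were a median of 0.74 apart, while the 8 nuclear genes had a median gap of 0.06. Wild-type array 2 was the higher one for 25 of the 26, against 49.9% of all tested probe sets. Intensities of the 26 summed to 703062 and 717201 on mutant arrays 1 and 2, against 721400 and 1128499 on wild-type arrays 1 and 2. The difference between nuclear and plastid-encoded genes was not tested. Whether the labelling took up nuclear and plastid transcripts alike was not tested either, so these intensities need not track plastid transcript levels.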

How the data were processed

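The authors deposited linear intensities, all positive, with 1 value for each of 22746 probe sets on each array. RNA was purified with a plant RNA kit and labelled by the array maker's instructions, per the labels' protocols. Software, scaling target and detection calls are not given in the sources used here. Deposited intensities had been scaled: means trimmed by 2% at each end differed by 0.0946% between arrays, and were kept as they were.

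Intensities were transformed as log2(intensity + 70.1), the 10th percentile of all values, which understates changes of dim probe sets. The brightest 60% by mean log2 value, 13648 probe sets, were fitted with limma 3.58.1 in R 4.3.3 (lmFit, eBayes with an intensity trend), with p-values adjusted by the Benjamini-Hochberg method over all of them at 0.05. Residual degrees of freedom were 2, and 9.2 after moderation. Exact permutation of 2 arrays against 2 cannot go below a two-sided p of 0.333, so it was not used. The number of arrays limits the precision. Wild-type array 1 carried no number in its label.

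Probe sets were named by the annotation of the platform, some of it possibly outdated, updated through RefSeq: 13513 probe sets had 1 gene, 503 had several, 8730 were not listed, and RefSeq matched 13436. CCR2 of the carotenoid list was left out, because the locus so named is a cinnamoyl-CoA reductase gene. No coordinates or sequences are given, and the planned search of promoters for motifs was not run.

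The genes and lists were chosen with earlier results of these data known. The naming rule took the highest, lowest and brightest member of each role and the 2 highest and 2 lowest of each related list, and here let every member be named; LIL3:1 was named outside it, after its values were seen. The lists of plastid-encoded genes and of photosynthesis genes outside the rule, and the counts by array, were added once the values were known. A difference on 1 mutant array is that array minus the mean of both wild-type arrays. Figures were drawn with matplotlib 3.10.9.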

Additional observations from a re-analysis of the deposited data

How the results depend on the processing

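Of the 15 tested genes, 0 passed an adjusted p of 0.05 in limma under cyclic loess, median or quantile normalization, no pseudocount or a higher one, no filter, the brightest 40%, eBayes without trend, robust eBayes, each array left out, or at an adjusted p under 0.10. The unadjusted threshold of 0.05 passed 1, HEME1. The median difference of 0.26 lay between 0.19 and 0.29 under the alternatives that kept all arrays, and between -0.02 and 0.55 with an array left out. The light-harvesting median of 0.04 ran from -0.34 to 0.35 with an array left out, and was -0.03 under median scaling and -0.12 among the brightest 40%, where LHCB4.3 was not tested. Medians of mutant array 1 lay between 0.38 and 0.67 and those of mutant array 2 between -0.10 and 0.00 under all alternatives run. Of the 15 genes, 2 changed sign under an alternative that kept all arrays, LHCB4.1 and PSAN under median scaling (-0.03 and -0.01), and 8 changed sign with an array left out. Counts by position, added after the data had been seen, kept 13 or 14 genes above both wild-type arrays on mutant array 1 under the other normalizations. On mutant array 2 the count of 3 was 4, 1 and 4 under quantile, median and cyclic loess normalization. The 13 probe sets passing over the whole table became 3 without a filter, 1 by eBayes without trend, 988 at an unadjusted p under 0.05 and 31 at an adjusted p under 0.10, and ran from 6 to 422 with an array left out. The cause was not tested. A lone array left in a genotype was assumed to vary like the other genotype. Because each gene had 1 probe set, and none of a kind that hybridises with several genes by name, both probe set alternatives gave the same values. No paired analysis was possible because the labels give the genotypes only 1 replicate number in common, and nothing in them ties arrays of both genotypes to a shared batch or day. Detection calls were not used here, and what HEMA3 and other dim probe sets show is limited by their low signal.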
